A study of Mus musculus with 30 samples.

Results

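The comparison described here sets the hearts of 3 HdhQ150 mice against those of 4 wild type (WT) mice at 8 months of age, 7 of the 30 libraries of a mouse heart series in 8 groups. Its members were chosen by age and genotype alone, and the results are effect sizes over every gene expressed in these hearts. HdhQ150 mice are a model of Huntington's disease, in which a long CAG repeat has been knocked in to the mouse's own Htt gene, and the study treats the age of 8 months as presymptomatic and 22 months as end stage. The animals were homozygous for the knock-in and were bred by crossing heterozygotes of a CBA/Ca line with those of a C57BL/6J line, both congenic, which gave a (CBA x C57BL/6) F1 background that is also the labelled strain of the WT mice. Every cell of these mice carries the allele, so that no effect can be assigned to 1 cell type of the heart. Used alongside were 4 HdhQ150 and 3 WT hearts at 22 months, and 4 R6/2 and 4 WT hearts at 4 weeks of age, where R6/2 mice are hemizygous for a transgene with a mutated first exon of human HTT. Total RNA of whole hearts was sequenced, and a mouse number, sex and lane stand in each column heading. Every heading but that of WT mouse 20 also holds a numbered tag that begins with LB, whose meaning is not given. Its number is lower in HdhQ150 mice 23 and 24 than in HdhQ150 mouse 22 and WT mice 17, 18 and 19. No 2 of these hearts share a tag, and its part in the values was not tested. The titles of the 8-month samples end in 8wk, where their age label gives 8 months, and the age label was used. WT mice 17 and 19 were male and 18 and 20 female, while HdhQ150 mouse 22 was female and mice 23 and 24 were male.

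Htt encodes huntingtin, a large scaffold protein that is present in most cells, and the disease arises when the run of glutamines near its start becomes too long. In the HdhQ150 allele the transcript is also partially mis-spliced, so that a short exon 1 protein is made beside the full-length one. The tract that the knock-in lengthens is shown here as it stands in the mouse reference genome (GRCm38, chr5:34761907-34762008, plus strand, the first 102 coding bases of transcript Htt-201, in exon 1), with the glutamine codons in capitals.

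Htt: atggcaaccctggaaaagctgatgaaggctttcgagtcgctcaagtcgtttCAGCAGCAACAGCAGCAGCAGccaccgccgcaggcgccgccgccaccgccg

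The reference tract has 7 glutamine codons, 6 CAG and 1 CAA, at codons 18 to 24. The expanded tract of the mice was not sequenced as such and is not shown.

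The 7 libraries held 33718139 to 52421753 counts, and 15173 genes passed the filter on low counts. Levels are given as CPM (counts scaled to library size, with TMM factors), and errors as the standard error (SE) of the log2 fold change. Of 14 cardiomyocyte markers none was at 0 in any heart, and their summed level was 51593 to 56259 CPM in HdhQ150 and 55546 to 59668 CPM in WT hearts. Both genotypes held both sexes, and lane 6 alone held hearts of both (1 of each), too few for a value within lanes, so that lane and genotype cannot be told apart. The mean distance of a library to the other 6 (root mean square difference in log2 CPM) was 0.29 for mouse 22 and 0.29 to 0.30 for the WT mice, and 0.35 and 0.39 for mice 23 and 24, which stood apart. Mouse 24 had a summed level of 1110 CPM over 16 airway and alveolar markers, against 0.99 to 8.51 CPM in the other 6 hearts, and 1385 CPM over 10 adipocyte markers. Mouse 23 had 647 CPM of the adipocyte markers, where mouse 22 had 454 CPM and the WT hearts 426 to 498 CPM. Mouse 23 also had 2861 CPM over the genes of an interferon response list, against 644 to 1107 CPM in the other hearts. Values without these libraries are given where they change a count or a median much.

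At 8 months the hearts of the 2 genotypes differed little in most genes. The median size of the log2 fold change over all 15173 genes was 0.087, which is 1.06-fold. It was under 1.28-fold for 90 in 100 genes and 2.30-fold at the 99th percentile, and 7912 genes were higher in HdhQ150 and 7261 lower. The 95% interval of the fold change lay within 1.3-fold of no difference for 8368 genes (55.2%) and within 2-fold for 13475 (88.8%). A fold change of 1.3 or more was estimated for 1383 genes (9.11%), 925 higher and 458 lower, and of 2 or more for 227 genes, 194 higher and 33 lower.

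The quasi-likelihood test of edgeR called no gene (0 of 15173, 0%), where a call needs 1.3-fold or more and a p under 0.1 after Benjamini-Hochberg adjustment. Without adjustment, 593 genes were higher (3.91%) and 531 lower (3.5%) in HdhQ150 at p under 0.05, which makes 1124 (7.41%). DESeq2 called 70 of the 16336 genes to which it gave an adjusted p (0.429%), 41 higher (0.251%) and 29 lower (0.178%), and limma on log2(FPKM + 1) called 0. The higher calls of DESeq2 included Elovl3 and Ucp1 (log2 fold changes 5.93 and 4.80), whose levels were highest in mouse 24 and next in mouse 23. For this comparison DESeq2 was not run with a heart left out. The levels of the 2 genotypes did not overlap in 1139 genes, 488 higher (3.22%) and 651 lower (4.29%). On the FPKM scale the split of such genes was 570 higher and 419 lower.

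How large a difference appeared depended on how much of a transcript there was. Among 2335 genes under 1 CPM the median size was 1.19-fold, and 769 of them (32.9%) were past 1.3-fold. Among the 6950 genes between 10 and 100 CPM it was 1.04-fold, with 136 (1.96%) past 1.3-fold, and among the 1043 genes of 100 CPM and over it was also 1.04-fold, with 24 (2.30%) past 1.3-fold. In this last class the interval lay within 1.3-fold for 896 genes (85.9%), against 1 gene under 1 CPM.

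**Figure D1:**
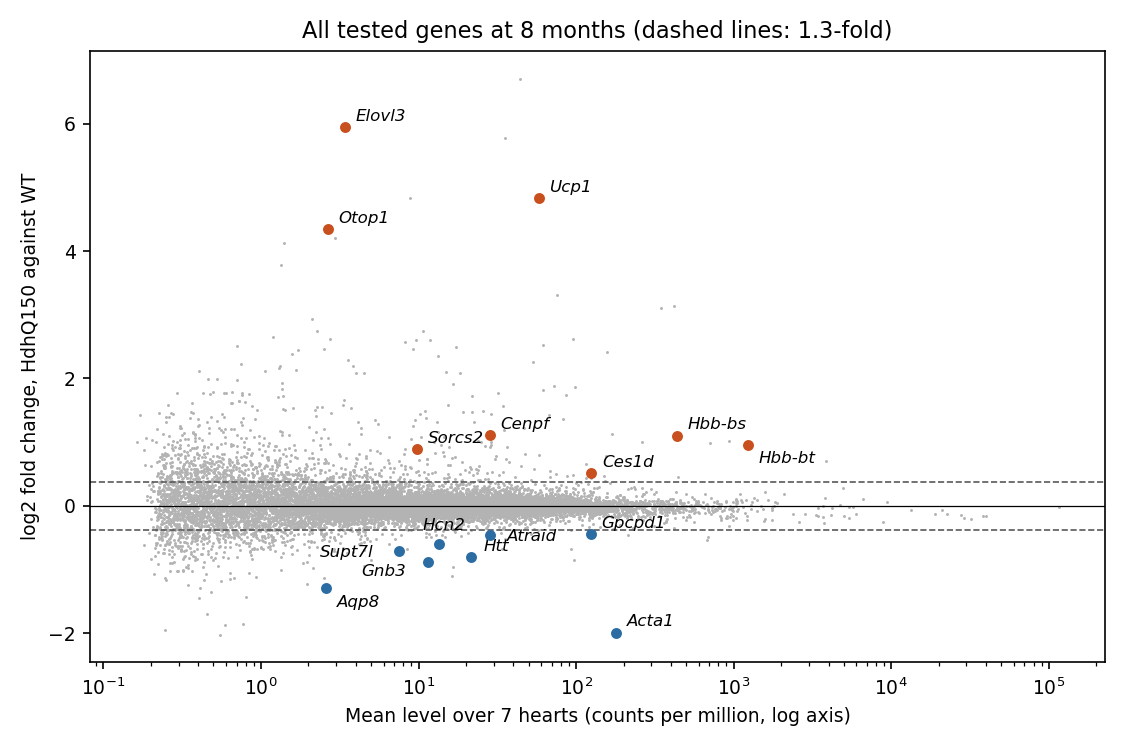
Mean level over the 7 hearts (CPM, log axis) against the log2 fold change of HdhQ150 against WT for all 15173 tested genes, with dashed lines at 1.3-fold and coloured points for named genes. Most genes lie between the dashed lines, the spread is widest under 1 CPM, and Elovl3, Ucp1 and Otop1 lie far above the rest of the named genes.

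Among the genes past 2-fold, the higher ones were mostly high in mice 23 or 24. Of the 194 higher genes, 131 were highest in mouse 24, 59 in mouse 23 and 4 in mouse 22. Mouse 22 lay above all 4 WT hearts in 57 of them, and all 3 HdhQ150 hearts did so in 33. The 33 lower genes were spread more evenly, with the lowest value in mouse 22 for 11, in mouse 23 for 13 and in mouse 24 for 9. Without mouse 24 the numbers past 2-fold were 165 higher and 72 lower, without mouse 23 they were 223 and 72, and without mouse 22 they were 345 and 56.

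The distance between libraries was compared over all genes. The root mean square difference in log2 CPM was 0.33 between genotypes and 0.30 within them, an excess of 0.028 (one-sided exact permutation test over 35 labellings, p = 0.171, where 0.0286 is the smallest p possible). Over the 1000 genes of highest level the excess was 0.052 (exact p = 0.0571). Without mouse 22 the excess was 0.084 (exact p = 0.0667, the smallest that 15 labellings allow), and without WT mouse 19 it was 0.0062 (exact p = 0.4).

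Htt itself was lower in the knock-in hearts. WT mice 17 to 20 had 25.7, 29.4, 20.2 and 29.8 CPM, and HdhQ150 mice 22, 23 and 24 had 14.3, 17.1 and 14 CPM. The groups did not overlap, and the fold change was 1.74-fold lower (log2 fold change -0.80, SE 0.14, edgeR adjusted p = 0.418). With sex in the model the log2 fold change was -0.76, and in the males alone -0.57. The count covers the whole gene and not the repeat, so it gives no measure of the expanded allele by itself, and how reads over the repeat were aligned was not tested.

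Other transcripts near Htt on chromosome 5 differed as well. Of the 20 tested genes on either side of it (40 in all, from Tacc3 to Bloc1s4 in annotation order), 7 were at an unadjusted p under 0.05, beside 7.41% of all tested genes, and 5 had groups that did not overlap, beside 3.22% higher and 4.29% lower. Msantd1, the next tested gene after Htt, had a log2 fold change of -1.43 (SE 0.33), with 0.85 to 1.53 CPM in WT and 0.25 to 0.58 CPM in HdhQ150 hearts. Rgs12, which encodes a regulator of G protein signalling, follows with 1 tested gene between and had a log2 fold change of -0.34 (SE 0.070). Gm15513, with 8 tested genes between it and Htt on the other side, had a log2 fold change of -1.70 (SE 0.33) at a low level of 0.56 to 0.76 CPM in WT and 0.14 to 0.31 CPM in HdhQ150 hearts. Msantd1 and Gm15513 were called by DESeq2, and both were picked after their values were seen, as was Rgs12.

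Sorcs2, a VPS10 domain receptor that binds neurotrophins, lies 13 tested genes away and was higher in the knock-in. WT hearts 17 to 20 had 5.43, 8.43, 5.60 and 9.28 CPM, and HdhQ150 hearts 22 to 24 had 12, 14.2 and 13.8 CPM. All 3 HdhQ150 hearts were above the 4 WT hearts, by a log2 fold change of 0.89 (SE 0.19, edgeR adjusted p = 0.481). WT females had more than WT males, and in males alone the log2 fold change was 1.35. The other 3 tested receptors of this family had overlapping groups, with log2 fold changes of -0.088 for Sort1, -0.022 for Sorl1 and 0.25 for Sorcs1.

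Atraid and Supt7l are also on chromosome 5, with 53 and 39 tested genes between them and Htt. Atraid, which encodes a membrane protein of bone cell differentiation, had the smallest p of all genes. Its level was 33.5, 31.4, 31.7 and 31.6 CPM in WT hearts 17 to 20 and 23.4, 23.9 and 22.8 CPM in HdhQ150 hearts. The spread within each genotype was small beside the gap, a log2 fold change of -0.45 (SE 0.053, edgeR adjusted p = 0.267, fold 1.37). Supt7l, a subunit of the STAGA transcription coactivator complex, had 9.42, 9.19, 7.64 and 9.80 CPM in WT and 5.78, 5.50 and 5.32 CPM in HdhQ150 hearts. The groups were clearly apart, with a log2 fold change of -0.70 (SE 0.10, edgeR adjusted p = 0.418). In a fit of all 30 libraries Supt7l was the 1 gene called (edgeR adjusted p = 0.0539). Of the 70 genes called by DESeq2, 9 were on chromosome 5 (12.9%), which holds 5.88% of the 16336 genes. Of these 9, 6 were lower, and the higher ones were Sorcs2, Otop1 and Drc1, with DESeq2 log2 fold changes of 0.89, 4.34 and 6.15. Otop1 was called by edgeR only without mouse 22 (log2 fold change 4.89, edgeR adjusted p = 0.0677). The levels of Otop1 and Drc1 in each heart are not given here. The part of the fat and airway transcripts of mice 23 and 24 in these 2 genes was not tested. In edgeR, 73 of the 902 tested genes of chromosome 5 (8.09%) were at an unadjusted p under 0.05, beside 7.41% of all tested genes. On other chromosomes this share ran from 3.99% (X) to 10.3% (chromosome 3). The strain of origin of the chromosome around Htt and the genotype cannot be told apart in this design.

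The study named 8 genes at this age from these same hearts, so that their differences are a description and not independent evidence. Htt, Supt7l and Sorcs2 are given above. Aqp8, an aquaporin of mitochondrial and plasma membranes, had 3.68, 2.73, 3.94 and 3.53 CPM in WT and 1.23, 1.73 and 1.3 CPM in HdhQ150 hearts, 2.45-fold lower (log2 fold change -1.295, SE 0.18). Hcn2, a pacemaker channel of the I(f) current, had 15.0, 14.7, 15.3 and 18.1 CPM in WT and 9.76, 11.8 and 9.73 CPM in HdhQ150 hearts, 1.52-fold lower (log2 fold change -0.60, SE 0.10). Neither gene had overlapping groups.

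Gnb3, a beta subunit of heterotrimeric G proteins, had 15.1, 12.7, 15.7 and 13.9 CPM in WT and 6.06, 9.55 and 7.86 CPM in HdhQ150 hearts, 1.84-fold lower. Gpcpd1, a phosphodiesterase that splits glycerophosphocholine, had 153, 132, 132 and 140 CPM in WT and 110, 104 and 94.3 CPM in HdhQ150 hearts, 1.36-fold lower. Ces1d, a carboxylesterase that acts on stored lipid, was higher by 1.43-fold, with 109, 101.6, 114 and 98.2 CPM in WT and 130, 154 and 169 CPM in HdhQ150 hearts. Every HdhQ150 heart was outside the WT range in all 8 genes. The edgeR adjusted p was 0.418 for 7 of them and 0.481 for Sorcs2. Over the 7 fits that each left out 1 heart, no log2 fold change of these genes changed sign.

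**Figure D2:**
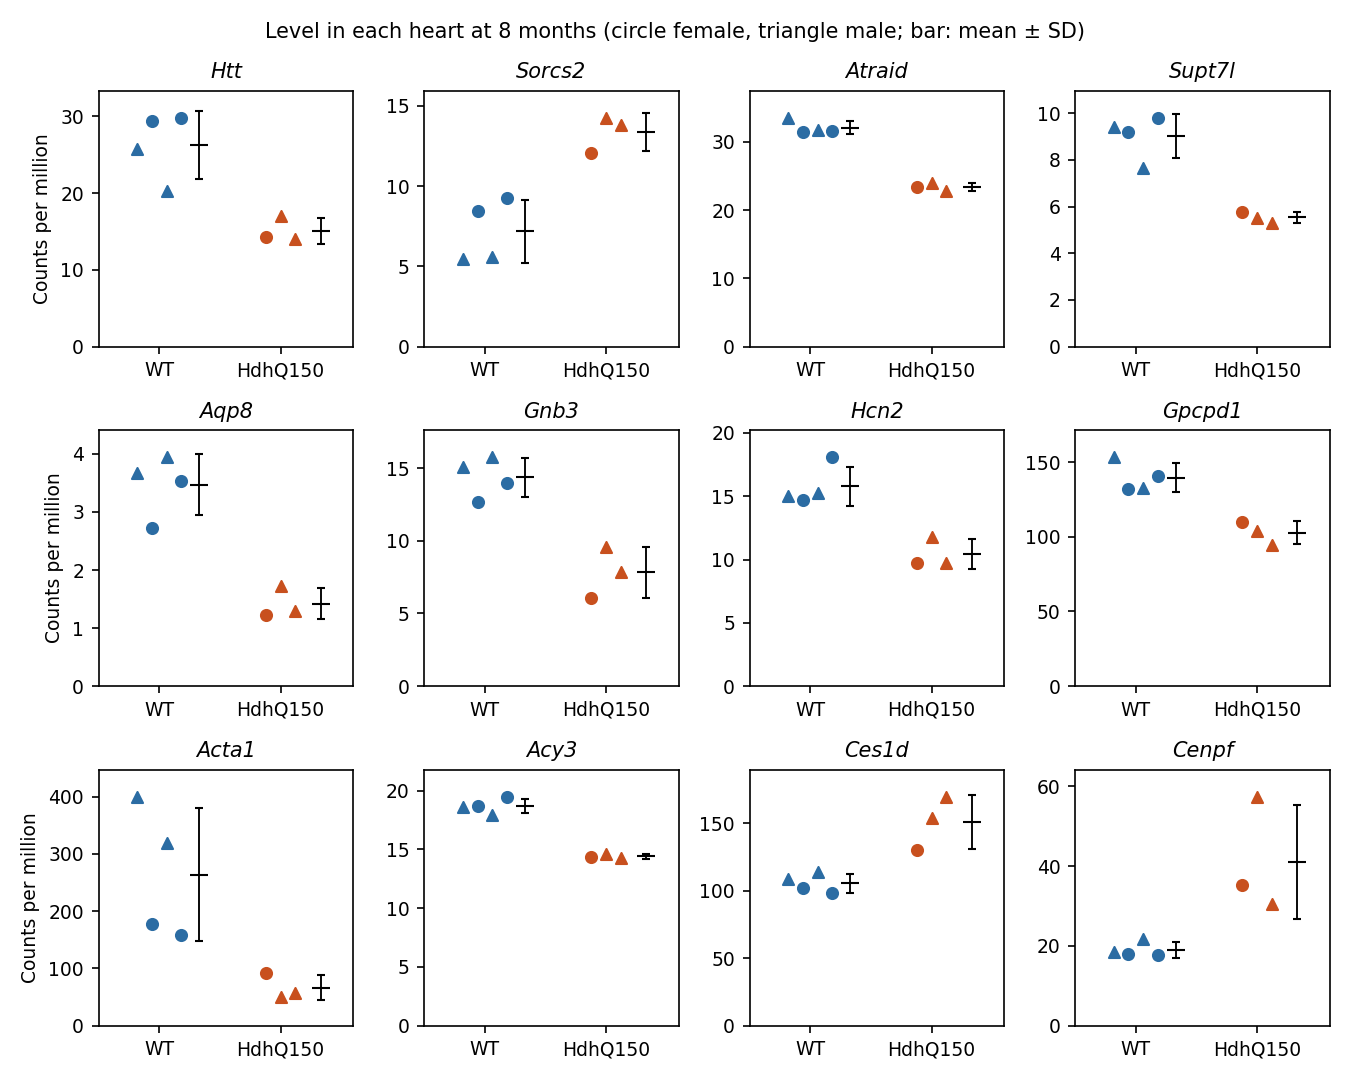
CPM of 12 genes in each of the 4 WT (blue) and 3 HdhQ150 (orange) hearts, circles for females and triangles for males, with the mean and SD beside each group. In all 12 genes the 2 genotypes do not overlap, the spread of WT Acta1 (158 to 400 CPM) follows sex, and mouse 23 is the high HdhQ150 heart for Cenpf (57.4 CPM).

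Acta1 had the lowest log2 fold change of all genes with a mean of at least 1 CPM. It encodes skeletal muscle actin, a gene of the foetal heart that is often re-expressed under load. WT hearts 17 to 20 had 400, 178, 320 and 158 CPM, and HdhQ150 hearts 22 to 24 had 91.4, 50.6 and 57.4 CPM. The male WT hearts were higher than the female ones, and all HdhQ150 hearts were below all WT hearts, 3.97-fold on average (log2 fold change -1.99, SE 0.36, edgeR adjusted p = 0.418). In males alone the log2 fold change was -2.74, and over the fits without 1 heart it ran from -2.29 to -1.72. Of 13 skeletal muscle markers, Acta1 among them, 7 were tested, of which 6 were lower and 1 higher with a median of -0.52. Lower without overlap were 3 of the 7, beside 4.29% of all tested genes. The summed level of the 13 markers was 1400 to 1604 CPM in HdhQ150 and 1729 to 2176 CPM in WT hearts. Ckm alone had 1340 to 1521 CPM in HdhQ150 and 1568 to 1774 CPM in WT hearts. The defining markers Myh1, Myh2 and Myh4 were at 0.11 CPM or less in every heart, and Myf6 was at 0 in all 7. The part of such tissue in the Acta1 difference was not tested.

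Of 25 foetal and hypertrophic genes 12 were higher and 13 lower, with a median log2 fold change of -0.012 beside 0.0065 over all tested genes. Ankrd1, a stretch-responsive repressor protein of the sarcomere, had 717 to 888 CPM in WT and 451 to 682 CPM in HdhQ150 hearts (log2 fold change -0.49, SE 0.14). Nppa, atrial natriuretic peptide, had 1229 to 1905 CPM in WT and 1316 to 1455 CPM in HdhQ150 hearts, so the groups overlapped (log2 fold change -0.24, SE 0.14). Nppb, the B-type peptide, differed by -0.059 (SE 0.13), with a 95% interval from -0.35 to 0.23. Myh6 and Myh7, the adult and foetal myosin heavy chains, had log2 fold changes of -0.061 (SE 0.10) and -0.16 (SE 0.062). S100a4, a calcium-binding protein of fibroblasts and macrophages, was higher with overlapping groups, at 3.55 to 4.41 CPM in WT and 4.38 to 6.06 CPM in HdhQ150 hearts (log2 fold change 0.48, SE 0.14).

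The remaining genes that the study assayed by other methods had overlapping groups in these libraries. The study examined connexin 43, collagen VI and tyrosine hydroxylase as proteins, where the values here are of RNA. By quantitative PCR it reported S100a4 and Vgll4 as significantly higher in HdhQ150 hearts at this age. Fhl1 and Fhl2, which encode LIM proteins of the sarcomere, had log2 fold changes of 0.047 (SE 0.072) and -0.013 (SE 0.081). Vgll4, a cofactor of TEAD factors, differed by 0.039 (SE 0.071) and Gja1, the gap junction protein connexin 43, by 0.044 (SE 0.083). Bdnf, a neurotrophin, differed by -0.11 (SE 0.18). Col6a1, Col6a2 and Col6a3, the collagen VI chains, differed by 0.067, 0.061 and -0.033 (SE 0.17, 0.15 and 0.15). The 95% intervals of Fhl1, Fhl2, Vgll4 and Gja1 lay within 1.3-fold of no difference, and those of Bdnf and the collagen VI genes did not. Th, tyrosine hydroxylase of sympathetic nerves, was too low to be tested.

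Most genes of the contractile apparatus had slightly lower levels. Of 49 tested sarcomere genes 37 were lower and 12 higher, with a median log2 fold change of -0.052, and 10 were lower at an unadjusted p under 0.05 and 1 higher, beside 3.5% and 3.91% of all tested genes. Mybpc3, the cardiac myosin-binding protein, had 2759, 2911, 2680 and 2852 CPM in WT and 2310, 2478 and 2241 CPM in HdhQ150 hearts. The groups did not overlap, although the difference was 1.20-fold (log2 fold change -0.26, SE 0.063, edgeR adjusted p = 0.534). Myl3, the ventricular essential light chain, had a log2 fold change of -0.27 (SE 0.073). Over the fits without 1 heart, 33 to 36 of the 49 genes were lower, and the median was -0.089 without mouse 23.

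Transcripts of the mitochondrion had the same sign. Of 81 tested genes of oxidative phosphorylation, encoded in the nucleus, 69 were lower and 12 higher, with a median log2 fold change of -0.068 and a 95% interval within 1.3-fold for 79. Cox6a2, the muscle form of a cytochrome c oxidase subunit, had 1055 to 1118 CPM in WT and 934 to 985 CPM in HdhQ150 hearts (log2 fold change -0.19, SE 0.052). Ndufa2 and Ndufv3, subunits of complex I, had log2 fold changes of -0.16 (SE 0.054) and -0.17 (SE 0.060). All 13 genes of the mitochondrial genome were lower, with a median of -0.14 and 0 at an unadjusted p under 0.05. Mouse 23 carried much of this: without it 51 of the 81 nuclear genes were lower with a median of -0.024, and the mitochondrial median was -0.051. Male WT hearts had more mitochondrial transcripts than female ones, as for mt-Cytb at 37466 and 38364 against 28541 and 31346 CPM. In males alone all 13 mitochondrial genes were lower, with a median of -0.35, as were 73 of the 81 nuclear genes, with a median of -0.13. With sex as a covariate the mitochondrial median was -0.15.

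Of 25 tested genes of glycolysis 12 were higher and 13 lower, and without mouse 24 it was 7 higher and 18 lower with a median of -0.047. Pgam2, the muscle phosphoglycerate mutase, was the steadiest of the lower ones, at 413, 383, 408 and 393 CPM in WT and 332, 335 and 333 CPM in HdhQ150 hearts. These HdhQ150 values were nearly the same in the 3 mice, and all were below WT (log2 fold change -0.26, SE 0.051, edgeR adjusted p = 0.453). Ldhb, the lactate dehydrogenase of oxidative muscle, had a log2 fold change of -0.23 (SE 0.063). In the same direction were small heat shock proteins of cardiac muscle, Hspb7 (-0.32, SE 0.083), Hspb8 (-0.26, SE 0.068) and Cryab (-0.22, SE 0.059), and the autophagy receptor Sqstm1 (-0.22, SE 0.062). Of all 32 heat shock genes, however, 22 were higher, and 9 were higher without mouse 24.

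Calcium handling and conduction had medians near 0. Of 38 calcium handling genes 22 were lower and 16 higher with a median of -0.011, and of 40 ion channel genes 23 were lower and 17 higher with a median of -0.019. The ion channel genes turned on single hearts, with 14 higher and 26 lower without mouse 23 (median -0.085) and 24 higher and 16 lower without mouse 24 (median 0.031). Atp2a1, the calcium pump of fast skeletal muscle, had 1.64 to 2.04 CPM in WT and 1.03 to 1.35 CPM in HdhQ150 hearts (log2 fold change -0.64, SE 0.17). Sln, sarcolipin of the atria, had a log2 fold change of -0.29 (SE 0.085), and the potassium channel gene Kcna7 one of -0.29 (SE 0.11). The 24 tested genes of the intercalated disc had a median of 0.0018, with 18 of the intervals within 1.3-fold, and without mouse 23 they were 7 higher and 17 lower (median -0.039).

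Autonomic signalling had 45 of 63 tested genes higher, with a median log2 fold change of 0.062. At an unadjusted p under 0.05, 7 were higher and 1 lower, beside 3.91% and 3.5% of all tested genes. Gnb3 was the lower one. Pde3b, a phosphodiesterase that breaks down cyclic AMP and cyclic GMP, was higher in every HdhQ150 heart, at 4.07, 6.51, 4.86 and 7.77 CPM in WT and 16.2, 8.44 and 16.9 CPM in HdhQ150 hearts (log2 fold change 1.25, SE 0.28). Prkar2b, a regulatory subunit of protein kinase A that is abundant in fat, had 1.98 to 5.06 CPM in WT and 4.65, 18.2 and 45.0 CPM in mice 22, 23 and 24. Its order among the 3 hearts was that of the adipocyte markers.

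**Figure D3:**
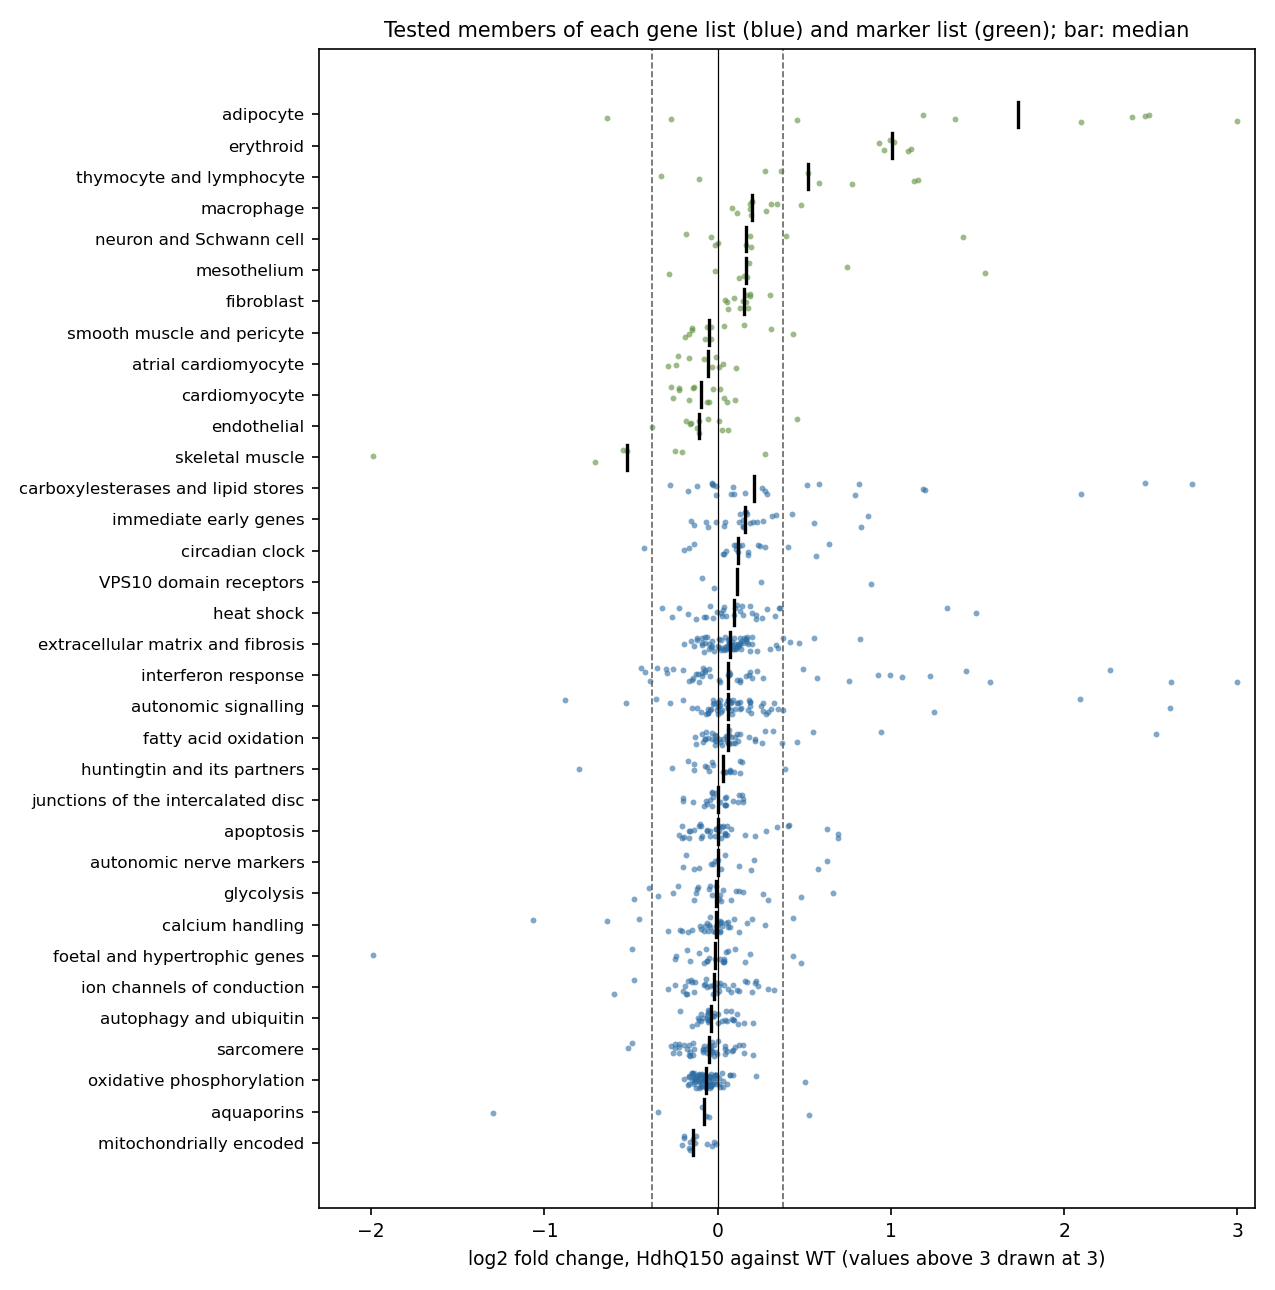
The log2 fold change (HdhQ150 against WT) of every tested member of 22 gene lists (blue) and 12 cell marker lists (green), with a bar at each median and dashed lines at 1.3-fold. Values above 3 are drawn at 3. Medians of all 22 gene lists lie between the dashed lines, the erythroid markers lie together near 1, and the adipocyte markers are scattered from below 0 to 3.

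Globin transcripts were about 2 times as high in the knock-in hearts. Hbb-bs, an adult beta globin gene, had 324, 309, 263 and 279 CPM in WT and 509, 864 and 519 CPM in HdhQ150 hearts, 2.15-fold higher (log2 fold change 1.10, SE 0.18, edgeR adjusted p = 0.418). Mice 22 and 24 had nearly the same level, mouse 23 the highest. Hbb-bt was higher by 0.96 (SE 0.16), Hba-a1 by 1.02 (SE 0.21) and Hba-a2 by 0.99 (SE 0.22), though reads of these near-identical pairs may be split between copies. Alas2, which starts haem synthesis in red cells, was higher by 0.93 (SE 0.20). All 6 tested erythroid markers were higher with groups that did not overlap, as in 3.22% of all tested genes, and their median of 1.01 was 0.67 without mouse 23. The summed level of the erythroid markers was 2070 to 2497 CPM in WT hearts and 3766, 6563 and 3707 CPM in HdhQ150 mice 22, 23 and 24. In RNA of a whole organ, more cells of a type and more RNA per cell cannot be told apart, and blood left in the heart at dissection was not measured.

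Other genes with small p values and no overlap had varied roles. Cenpf, a kinetochore protein of dividing cells, had 18.6, 18, 21.8 and 17.6 CPM in WT and 35.2, 57.4 and 30.5 CPM in HdhQ150 hearts (log2 fold change 1.11, SE 0.20). Ucp2, a mitochondrial carrier, had 102, 94.2, 103 and 85.3 CPM in WT and 120, 127 and 126 CPM in HdhQ150 hearts (log2 fold change 0.37, SE 0.074). Hpgd, which inactivates prostaglandins, was higher by 0.45 (SE 0.092). The identifier ENSMUSG00000081123, for which the files pair no symbol, was higher by 0.87 (SE 0.18).

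Among the lower genes, Acy3, an aminoacylase, had 17.9 to 19.5 CPM in WT and 14.2 to 14.6 CPM in HdhQ150 hearts (log2 fold change -0.38, SE 0.056). Pdzd3, a PDZ domain scaffold, was lower by a log2 fold change of -0.68 (SE 0.12). Aqp4, the water channel of muscle and glia, went the other way from Aqp8, at 2.83 to 3.41 CPM in WT and 3.97 to 5.32 CPM in HdhQ150 hearts (log2 fold change 0.53, SE 0.14). In all of these genes the groups did not overlap.

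Markers of the connective tissue and of macrophages were slightly higher. All 12 fibroblast markers were higher with a median log2 fold change of 0.15, though 0 reached an unadjusted p under 0.05 and the summed level of 2434 to 2950 CPM in HdhQ150 overlapped the 2186 to 2754 CPM of WT hearts. Without mouse 22 the median was 0.045. All 11 macrophage markers were higher with a median of 0.20, 5 of them at an unadjusted p under 0.05, beside 3.91% of all tested genes. Their summed level was 305 to 344 CPM against 261 to 292 CPM in WT hearts. Over the fits without 1 heart, 10 or 11 were higher, with the lowest median of 0.13 without mouse 23. Of 72 extracellular matrix and fibrosis genes 54 were higher and 18 lower, with a median of 0.070, and without mouse 22 it was 42 higher and 30 lower with a median of 0.039. Timp2, an inhibitor of metalloproteinases, had a log2 fold change of 0.20 (SE 0.074), and Ltbp1, which binds latent TGF-beta, differed by 0.17 (SE 0.069). Fas, a death receptor, was higher by a log2 fold change of 0.41 (SE 0.11), while the 40 apoptosis genes were evenly split at 20 and 20.

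Several genes of fat were high in mouse 24 and, less so, in mouse 23. Of 10 adipocyte markers 8 were higher, with a median log2 fold change of 1.74 that was 0.51 without mouse 24 and at most 2.47 with another heart left out. Ucp1, the uncoupling protein of brown fat, had 8.20, 78.6 and 301 CPM in mice 22, 23 and 24 and 1.08 to 8.80 CPM in WT hearts. Elovl3, which lengthens fatty acids in brown fat, had 0.79, 5.24 and 17.5 CPM in the same mice and 0.073 to 0.21 CPM in WT hearts. Its log2 fold change was 5.94 (SE 1.05), and 4.53 without mouse 24. Mouse 22 was within the WT range for Ucp1 and above it for Elovl3. Other fat markers were high in WT mouse 20. Cfd, the adipokine adipsin, had 73.0 CPM there and 4.61 to 26.7 CPM in the other 6 hearts, and Retn, resistin, had 4.94 CPM against 0.23 to 1.71 CPM. Adipoq, adiponectin, had 15.3 CPM in WT mouse 20, 14.6 CPM in mouse 23 and 31.3 CPM in mouse 24.

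Several lists held genes that followed these 2 hearts. Of 24 tested genes of carboxylesterases and lipid stores 16 were higher, 8 of them at an unadjusted p under 0.05, beside 3.91% of all tested genes. The median was 0.21, and it was 0.065 without mouse 24 and 0.40 without mouse 22. Pnpla3, a lipid droplet protein, had 3.72, 7.53 and 51.6 CPM in mice 22 to 24 against 1.56 to 5.71 CPM in WT, and Lipe, the hormone-sensitive lipase, 44.3, 73.3 and 111 CPM against 42.2 to 46.4 CPM. Acaca, which makes malonyl-CoA for fatty acid synthesis, had 16.5, 58.6 and 276 CPM against 12.6 to 36.1 CPM. Acsl5, an acyl-CoA synthetase, had 20.9, 27.1 and 61.7 CPM against 17.3 to 20.1 CPM. The part of the fat markers in the values of these genes was not tested.

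**Figure D4:**
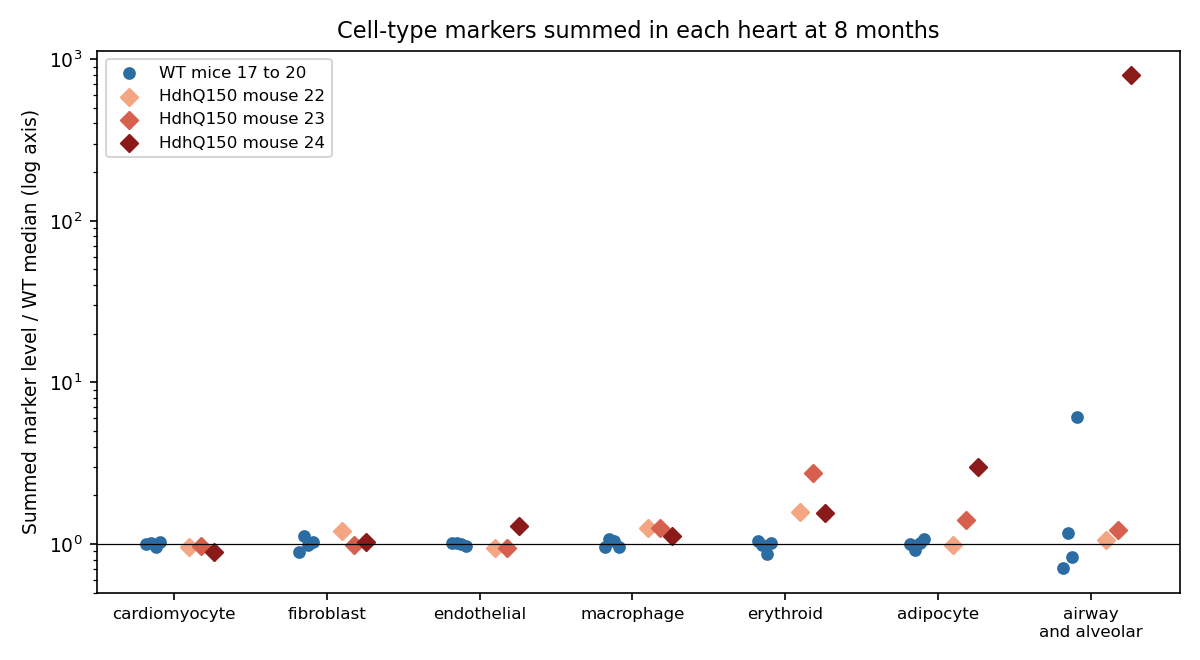
Summed CPM of 7 marker lists in each heart divided by the WT median (log axis), blue circles for the 4 WT and diamonds for the 3 HdhQ150 hearts. The cardiomyocyte and fibroblast sums stay near 1, and the endothelial sum is 1803 CPM in mouse 24 against 1358 to 1414 CPM in WT hearts. That sum includes Fabp4, also an adipocyte marker, at 784 CPM in mouse 24 against 354 to 414 CPM in WT hearts. Between the genotypes, 8 of the 12 endothelial markers were lower and 4 higher. The erythroid sum is above all WT hearts in all 3 HdhQ150 mice, and mouse 24 stands out for the adipocyte and airway markers.

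Airway transcripts were high in mouse 24. Scgb1a1, the secretoglobin of club cells, had 415 CPM there and 0 to 0.14 CPM in the other 6 hearts, and Bpifa1, a secreted protein of the upper airway, had 440 CPM against 0 to 0.12 CPM. Sftpc, the surfactant protein of alveolar cells, had 9.83 CPM in mouse 24 and 3.44 CPM in WT mouse 20. Only 2 of the 16 airway and alveolar markers passed the filter on low counts, so that most of these genes are not among the 15173.

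Several interferon genes were high in mouse 23. Of 48 tested genes 27 were higher and 21 lower, with a median of 0.062, and 14 had their highest value of all hearts in mouse 23. Igtp, an interferon-inducible GTPase, had 434 CPM in mouse 23 and 12.5 to 23.6 CPM in the other 6 hearts, and Iigp1, another one, had 485 against 21.3 to 47.3 CPM. Without mouse 23 the log2 fold change of Igtp went from 3.32 to 0.049, and 16 of the 48 genes were higher and 32 lower with a median of -0.086. Without WT mouse 17, 47 of the 48 were higher, with a median of 0.46. WT mouse 17 held the highest level of Irf7 (23.3 CPM against 5.54 to 13.5 CPM in the other hearts). Ifi27 had a different order, at 30.9, 84.0 and 94.6 CPM in mice 22, 23 and 24 and 27.8 to 33 CPM in WT hearts, which is that of the fat markers. Isg20, an interferon-induced exonuclease, was above WT in all 3 mice (2.85 to 4.64 CPM in WT, 4.79 to 6.18 CPM in HdhQ150, log2 fold change 0.57, SE 0.17). Igtp, Iigp1 and Irf7 were picked after their values were seen.

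Stress and clock genes also turned on single hearts. Of 32 heat shock genes 22 were higher, with a median of 0.097, but without mouse 24 there were 9 higher and 23 lower, with a median of -0.094. Of 21 circadian clock genes 17 were higher with a median of 0.12, and without mouse 24 it was 9 higher and 12 lower, while the median was 0.22 without mouse 22. Bhlhe40, a repressor of the clock, had 50.9 to 72.5 CPM in HdhQ150 and 39.1 to 51.7 CPM in WT hearts. Of 25 immediate early genes 20 were higher with a median of 0.16, and without mouse 23 it was 12 higher and 13 lower, while the median was 0.33 without mouse 22. Atf3, a stress-induced factor, had 4.69, 5.78 and 12.3 CPM in mice 22 to 24 and 4.22 to 4.41 CPM in WT hearts. The hour at which hearts were taken is not given in the sources used here.

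At 22 months differences were larger and less precise. The median size of the log2 fold change was 0.24 over 15569 genes (1.18-fold), 30.7% of the genes were past 1.3-fold, and the median SE was 0.19 against 0.11 at 8 months. The 2 ages share no library, and across 14942 genes tested at both the log2 fold changes had a Spearman rho of 0.36, which is across genes that are not independent replicates. Acta1 was lower at both ages, by a log2 fold change of -1.99 at 8 and -3.17 at 22 months (SE 0.36 and 0.81). Aqp8 had -1.295 and -1.05 (SE 0.18 and 0.40), and Hcn2 -0.60 and -0.95 (SE 0.10 and 0.31). Sorcs2 had 0.89 and 1.14 (SE 0.19 and 0.23), Cenpf 1.11 and 1.47 (SE 0.20 and 0.51), and Hbb-bs 1.10 and 1.19 (SE 0.18 and 0.59).

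Some genes had smaller values at the later age. Htt went from -0.80 to -0.40 (SE 0.14 and 0.19), Supt7l from -0.70 to -0.12 (SE 0.10 and 0.13), Gnb3 from -0.88 to -0.23 (SE 0.15 and 0.26), and Ces1d from 0.52 to 0.078 (SE 0.094 and 0.18). The sign was opposite at 22 months in 17 of 91 named genes, such as Elovl3 (5.94 and -0.21, SE 1.05 and 1.05), Pnpla3 (2.74 and -0.64, SE 0.84 and 0.56) and Myh7 (-0.16 and 0.45, SE 0.062 and 0.43). All 81 oxidative phosphorylation genes were lower at 22 months, with a median of -0.43, as were 37 of the 49 sarcomere genes with a median of -0.25. Fibroblast markers had the other sign at 22 months, with 10 of 12 lower, and so did heat shock genes, with 31 of 32 lower. All 48 interferon genes were higher at 22 months, with a median of 0.80. So were all 9 tested thymocyte and lymphocyte markers, with a median of 3.17, and their part in the other values was not tested. At 22 months, HdhQ150 mice 29 and 30 and WT mouse 27 were female. HdhQ150 mice 31 and 32 and WT mice 26 and 28 were male.

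Whether the genotype effect differed between the ages was tested as an interaction, and edgeR called 0 of 16137 genes (0%), where 1261 had p under 0.05 before adjustment. The number for DESeq2 was 2. The 5 genes of smallest p with a mean of at least 1 CPM were Ube2f, Tmem255a, mt-Ti, Cngb3 and mt-Tq, all at an edgeR adjusted p of 0.600. For Supt7l the difference, 8 months minus 22 months, was -0.58 and for Ces1d it was 0.44, at the same adjusted p.

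**Figure D5:**
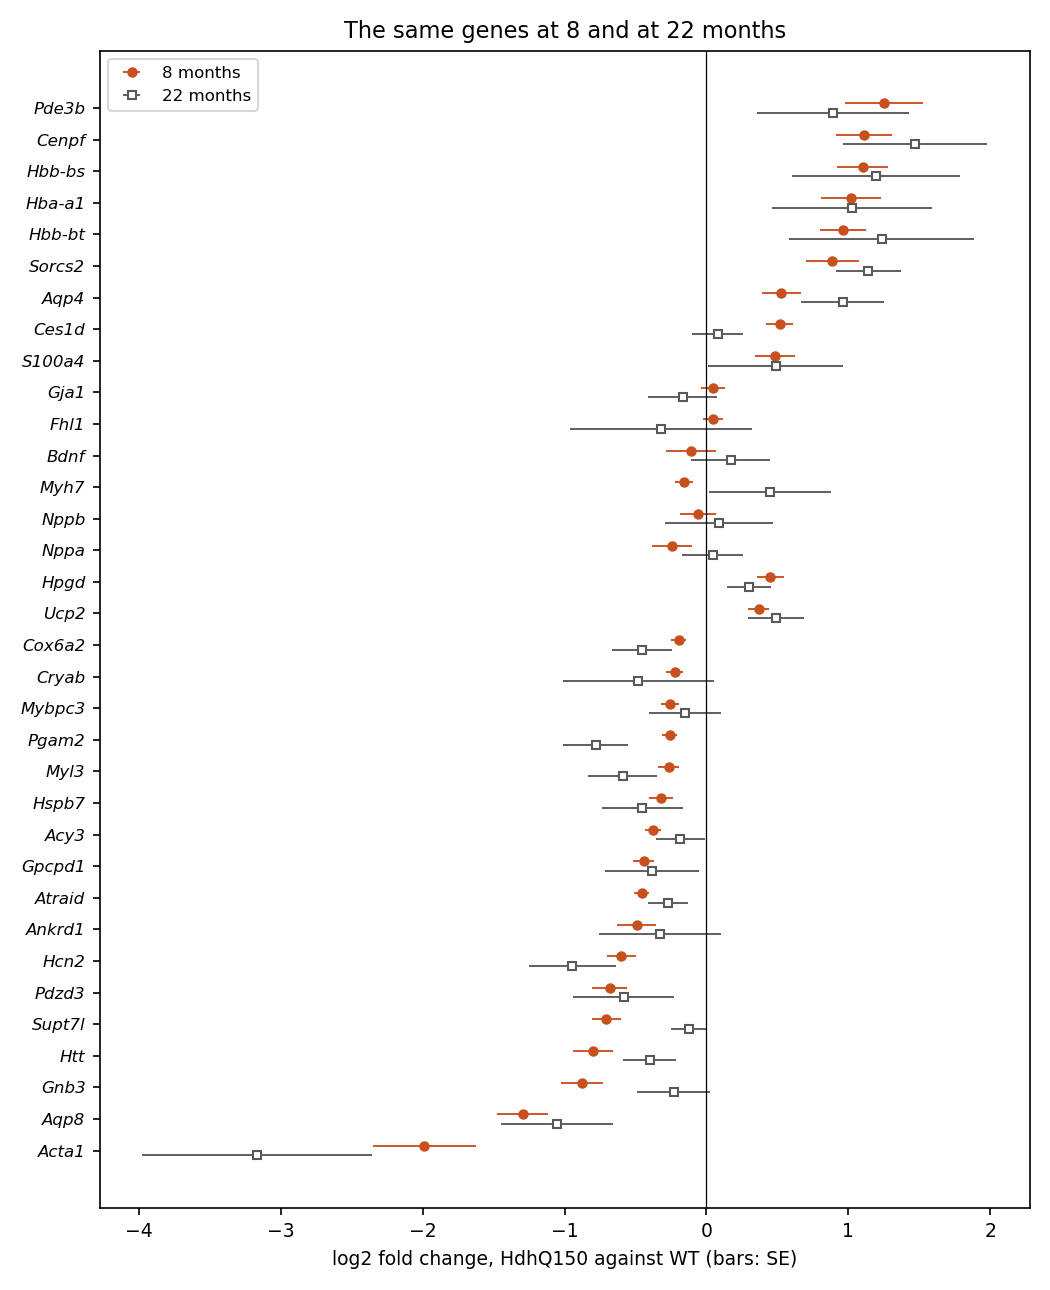
The log2 fold change of HdhQ150 against WT (bars: SE) of 34 named genes at 8 months (orange circles) and 22 months (open squares). In 28 of them the sign is the same at both ages and in 6 (Nppa, Nppb, Myh7, Bdnf, Fhl1 and Gja1) it is not, the SE is wider at 22 months, Acta1 reaches -3.17 at 22 months, and Supt7l, Gnb3 and Ces1d lie nearer to 0 there.

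The other presymptomatic group of the series, R6/2 at 4 weeks, had a median size of 0.12 in log2 fold change over 15478 genes, with 13.6% past 1.3-fold. Its log2 fold changes had a Spearman rho of -0.0030 with those of HdhQ150 at 8 months across 14936 genes. In R6/2 at that age Htt had a log2 fold change of -0.090 (SE 0.16), Hcn2 of 0.072 (SE 0.33), Supt7l of -0.058 (SE 0.13) and Sorcs2 of -0.11 (SE 0.46). The sign was opposite in 46 of 90 named genes, among them Aqp8 (0.73, SE 0.40), Cenpf (-0.60, SE 0.34), Aqp4 (-0.66, SE 0.29) and Acta1 (0.32, SE 0.78). In the test of the difference between the 2 comparisons, which differ in model, age and control hearts, edgeR called 0 of 16226 genes (0%) and DESeq2 35, where 785 had p under 0.05 before adjustment in edgeR. Tox, Hpgd, Wdr18, Prg4 and Rrp12 had the smallest p, each at an edgeR adjusted p of 0.999967.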

How the data were processed

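Total RNA of whole mouse hearts was sequenced as paired-end 50-base reads on an Illumina HiSeq. The authors aligned reads in Omicsoft with OSA to build B37 of the mouse genome and deposited expected counts, without normalization, and FPKM values for 37620 Ensembl genes. Of the non-zero counts 70.9% were whole within 1e-09, and they were rounded, although whole counts had been assumed. As no sample label gives the mouse numbers of the headings, libraries were unpaired replicates of their group, and p-values measure the spread between these hearts.

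Genes were tested with edgeR 4.0.16 in R 4.3.3 (quasi-likelihood test, TMM, filterByExpr) and called where p was under 0.1 after Benjamini-Hochberg adjustment and the fold 1.3 or more, after the thresholds of the study. SE was derived from the log2 fold change and the F statistic. DESeq2 1.42.0, limma 3.58.1, other filters and scalings, sex as a covariate and each heart left out were alternatives. The distance over the 1000 genes of highest level was another. Males alone was chosen after seeing the data. Scripts were tested on simulated data. Figures were drawn with matplotlib 3.10.9.

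Libraries held 33718139 or more counts, and intervals were widest for genes under 1 CPM. Pairs of libraries were checked for duplicates by chi-square, and none was one. Of 952 list entries 945 matched. The 4723 identifiers without a symbol held 0.759% of counts. The members and lists were chosen with earlier results of these data known. Named are 8 genes of the study at this age, 14 that it measured otherwise, the 10 genes of smallest p in each direction with no overlap and at least 1 CPM, 3 per list, 5 per difference test and markers. Some genes that meet this rule are not reported here. Others are said to be picked later, as are Msantd1, Gm15513, Rgs12, Sorl1, Drc1 and Otop1. The order of genes is that of GENCODE vM21. The deposited sample description was not used.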

Additional observations from a re-analysis of the deposited data

Results flagged for a closer look

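In 7 of 104 groups of 4 WT hearts (named genes and summed markers), 1 heart lay far from the other 3, by a gap to the nearest heart that took up most of the group's range (Dixon's criterion), which chance gives in about 5% of groups. Hcn2 was 18.1 CPM in mouse 20 against 14.7 to 15.3 CPM in the other WT hearts. Hbb-bt was 763 CPM in mouse 19 against 912 to 925 CPM, and Atraid was 33.5 CPM in mouse 17 against 31.4 to 31.7 CPM. All 3 genes kept groups that did not overlap with these hearts included. Jsrp1, a protein of the sarcoplasmic reticulum, was 0.658 CPM in mouse 18 against 0.555 to 0.566 CPM, and Gfra3, a receptor of autonomic neurons, was 2.17 CPM in mouse 18 against 1.64 to 1.69 CPM. Acaca was 36.1 CPM in mouse 20 against 12.6 to 16.4 CPM. The summed airway and alveolar markers were 8.51 CPM in mouse 20 against 0.99 to 1.63 CPM.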

How the results depend on the processing

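No paired analysis was possible because the columns carry none of the labels' replicate numbers. The count of 0 called genes was also 0 with RLE size factors, either filter, robust dispersion, 14 libraries in 1 fit, limma at both pseudocounts, sex as a covariate, males alone, an adjusted p under 0.05 and no limit on the fold. It was 70 with DESeq2, 1 with all 30 libraries and 0 to 3 with a heart left out (3 without mouse 22, Ifi27, Elovl3 and Otop1). Genes at an unadjusted p under 0.05 numbered 473 with all 30 libraries, 581 with 14 and 744 to 1451 with a heart left out, the lowest without WT mouse 17. The median size of the log2 fold change was 0.18 with no filter, 0.076 with at least 1 CPM in 3 libraries, 0.063 on log2(FPKM + 1) and 0.089 to 0.11 with a heart left out. The percent past 1.3-fold was 34, 4.83, 1.92 and 9.46 to 13.0 in the same order. Genes without overlap numbered 1549 to 2782 with a heart left out, where smaller groups separate more easily, and the excess distance ran from 0.0062 to 0.084. With DESeq2 the differences called were 2 for the ages and 35 for the models, and with a heart left out 0 to 0 and 0 to 5 (5 without WT mouse 12). Of 1272 values of 91 named genes, 27 changed sign, in 12 genes. In males alone they were Nppa (0.010), Nppb (0.076), Fhl1 (-0.057), Myh6 (0.046), Col6a3 (0.19) and Sort1 (0.031). On log2(FPKM + 1) and log2(FPKM + 0.1) they were Fhl2 (0.014 in both) and Col6a3 (0.033 and 0.040), and with sex as a covariate Col6a3 (0.053). With a heart left out, Nppb ran from -0.16 to 0.043, Fhl2 from -0.11 to 0.061, Vgll4 from -0.013 to 0.099, Myh6 from -0.14 to 0.00083, Bdnf from -0.27 to 0.0032, Gja1 from -0.024 to 0.13, Col6a1 from -0.066 to 0.18, Col6a2 from -0.048 to 0.17 and Col6a3 from -0.14 to 0.086. Under 1 CPM the interval lay within 1.3-fold for 1 of 2335 genes, so small differences there were not detectable at this depth. The cause of these changes was not tested.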
